A study of Mus musculus with 2 samples.

Results

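The expression of 9 genes was followed through erythroid differentiation in mouse fetal liver: *Fam132a*, *Hesx1*, *Prss50*, *C2cd4a*, *Slc29a1*, *Pla2g12a*, *Arhgdig*, *Minpp1* and *Asb17*. They are 9 of the 27998 genes listed, of which 17768 had at least 1 molecule counted, and they were selected on measured values of the same cells, as leading genes by fold of a deeply sequenced cluster with little Ter119. That they are high in cells of this kind is therefore how they were chosen and not a result, and all levels below are descriptions without a test. The data are 1 CITE-seq experiment, in which transcripts and barcoded surface antibodies are counted in the same cells. The cells came from fetal livers of C57BL/6 embryos at e13.5, pooled and partially depleted of Ter119+ cells, and Ter119+ cells were then added back, so the shares of the stages are not those of the liver. No treatment or genotype was compared. There was 1 cDNA library and 1 antibody library of the same 7863 cells, so every interval below is an exact 95% interval that covers counting error only, and not differences between animals or libraries.

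Red cells arise in the fetal liver from burst-forming units (BFU-E) through colony-forming units (CFU-E), which divide under erythropoietin, to erythroblasts that fill with globin and lose their nucleus. The receptor cKit is carried by early progenitors and lost as they mature. CD71, the transferrin receptor that imports iron for heme, appears in CFU-E and is lost late, and Ter119 marks erythroblasts and red cells. Antibody levels of Ter119 and CD71 were used to place cells in 6 populations. S0-low, S0-medium and S1 have low Ter119 and rising CD71, S2 has intermediate Ter119 with high CD71, and S3 and S4/S5 have high Ter119 with high and falling CD71. In sorted fetal liver these populations run from mostly BFU-E over CFU-E to maturing erythroblasts. The 3 surface proteins were read through the barcodes below, which are shown because every level in this text is ordered by their counts.
Ter119: gaggcgattgat
CD71: cgaagaaggagt
cKit: aagcgcttggca

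The data held 58606632 unique molecules (UMIs), between 2510 and 38047 per cell with a median of 5707. After filters on quality and doublets, 7244 cells remained, and 6424 of these were low for the 5 antibodies against other blood lineages. S0-low held 1510 cells, S0-medium 1054, S1 612, S2 1295, S3 855 and S4/S5 881. Their median cKit counts were 256, 219, 92, 23, 16 and 13 in this order, their median CD71 counts 69, 428, 1150, 1611, 1389 and 281, and their median Ter119 counts 4, 8, 14, 51, 124 and 156. Globin took 1.05% of UMIs in S0-low and 64.1% in S4/S5. Of the S0-low cells, 20.5% lay in clusters that carry markers of hepatocytes, megakaryocytes, myeloid cells or macrophages, against at most 0.49% in the other 5 populations. A further 17.1% lay in 1 unnamed cluster of 484 cells, whose leading genes include *Cd34*, *Emb*, *Lsp1*, *Coro1a* and *Irf8*, with median counts of 5 for Ter119 and 26 for CD71. It is not counted among the other types, and the 9 genes summed to 269.7 counts per 1000000 UMIs (CPM) in it. Some marker lists of other cell types were higher in S0-low too. The 12 hepatocyte genes, with *Afp*, *Alb* and *Apoa1* the most abundant, summed to 9645 CPM there and to between 453.7 and 1169 elsewhere. The 10 myeloid genes summed to 612.5 CPM against 74.0 to 237.2, most of it from the granule genes *Prtn3* (213.1 CPM in S0-low) and *Mpo* (168.2). *Lyz2* read 64.6 CPM in S0-low, while *S100a8* and *S100a9* were lower there, at 28.3 and 20.7 CPM, than in S4/S5, at 47.3 and 44.9 CPM. The 10 macrophage genes summed to 55.2 CPM in S0-low, near the 54.9 CPM of S4/S5, and to between 10.3 and 26.4 elsewhere. *Vcam1* held 17.8 CPM of this in S0-low and *Hmox1* 36.2 CPM in S4/S5. The 8 mast cell or basophil genes, with *Cpa3*, *Mcpt8* and *Ms4a2* the most counted, summed to 15.4 CPM in S0-low against 0.320 to 1.19. The 10 megakaryocyte genes, with *Pf4*, *Ppbp* and *Gp9* the most counted, were not highest in S0-low, with 76.3 CPM against 47.2 to 89.5. In S1, 1 megakaryocyte and 1 macrophage gene were at 0, and between 3 and 7 of the mast cell genes were at 0 in each population.

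The CFU-E label was checked against markers. The cluster that the 9 genes lead held 745 cells with a median of 13176 UMIs and median counts of 10 for Ter119, 225 for cKit and 627 for CD71. Its 10 leading genes were the 9 genes, which were chosen in this way, and *Sphk1*, a sphingosine kinase. None of 15 listed CFU-E markers was among them, but the choice of the 9 left almost no place for one. Of these 15 markers, 1 was highest in this cluster, *Epor*, the erythropoietin receptor, with 168.7 CPM. *Klf1*, a transcription factor of erythroid genes, stood at 609.7 CPM against 948.8 in the cluster where it was highest, and *Tfrc*, which encodes CD71, at 178.8 against 378.2 CPM. Most of these markers were thus higher in other clusters and do not settle the CFU-E name, so the group is called the 9 genes here. Their levels were also not particular to the deep cluster. A shallower cluster of 848 cells, with a median of 5356 UMIs and of 5 for Ter119, 154 for cKit and 229.5 for CD71, held the 9 genes at a summed 1711 CPM, against 1730 CPM in the deep one. *Fam132a* stood at 279.8 and 278.4 CPM in these clusters and *Pla2g12a* at 533.3 and 459.9 CPM. The leading genes of the shallower cluster, ranked by fold, held none of the 9.

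**Figure D1:**
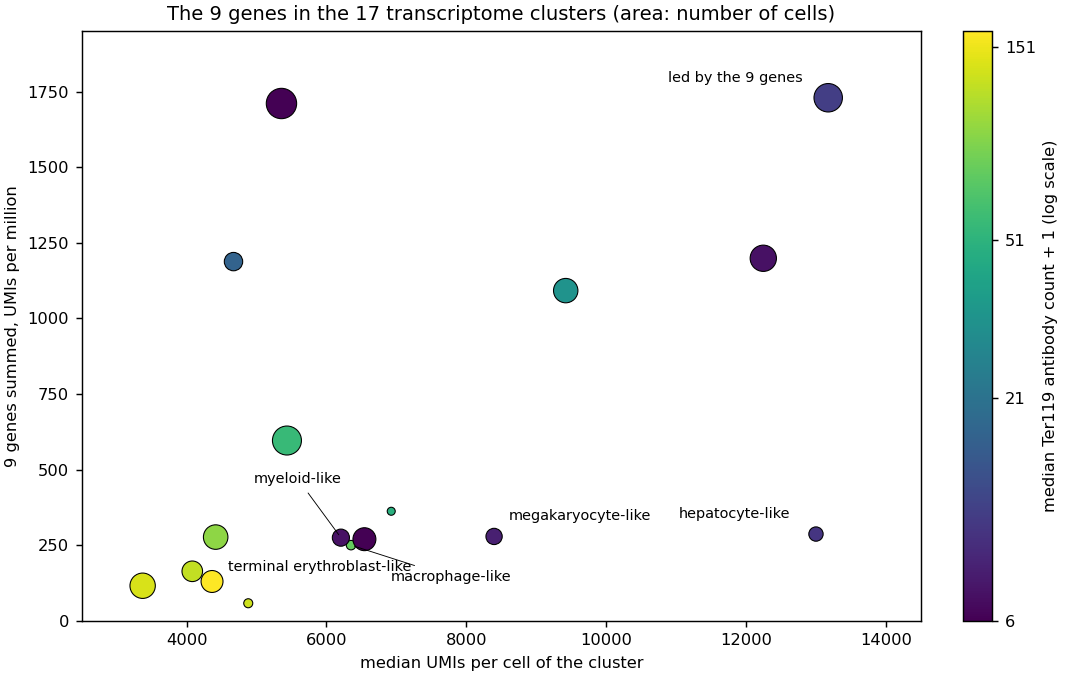
Summed level of the 9 genes (CPM) against the median UMIs per cell in each of the 17 clusters, with area for the number of cells and colour for the median Ter119 count. The cluster led by the 9 genes lies at 13176 UMIs and 1730 CPM, and a cluster of 5356 UMIs lies beside it in level at 1711 CPM.

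The genes belong to unrelated families. *Fam132a* and *Asb17* each overlap an annotated noncoding gene, *Gm42365* and *Asb17os*, so their counts are uncertain where reads could be assigned to either. In RefSeq on mm10, the build of the counts, *Fam132a* is listed as *C1qtnf12* on chromosome 4 from 155962312 to 155966629. *Pla2g12a* lies on chromosome 3 from 129878606 to 129895825 and *Asb17* on the same chromosome from 153844247 to 153853615. *C2cd4a* and *Prss50* lie on chromosome 9, from 67830532 to 67832330 for *C2cd4a* and from 110857964 to 110864629 for *Prss50*. *Slc29a1* and *Arhgdig* lie on chromosome 17, from 45585200 to 45599618 and from 26199183 to 26201350. *Hesx1* lies on chromosome 14 from 26994419 to 27002329 and *Minpp1* on chromosome 19 from 32485769 to 32515370.

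Promoter windows of 300 bases, 250 before and 50 after an annotated start, were at hand from RefSeq for 7 of the 9 genes, 15 windows in all, of which 8 belong to *Slc29a1*. They were searched on both strands for AGATAA and TGATAA, forms of the motif bound by GATA factors, which drive erythroid genes. Among all 32851 windows, 18.6% held such a motif, and 3 of the 15 windows did, in 3 genes. Those 3 windows are shown on the strand of the gene with the motif in capitals, as the sequence context of genes that were chosen together. A match is a description and not a binding site.
Pla2g12a, chr3:129880934-129881233, plus strand: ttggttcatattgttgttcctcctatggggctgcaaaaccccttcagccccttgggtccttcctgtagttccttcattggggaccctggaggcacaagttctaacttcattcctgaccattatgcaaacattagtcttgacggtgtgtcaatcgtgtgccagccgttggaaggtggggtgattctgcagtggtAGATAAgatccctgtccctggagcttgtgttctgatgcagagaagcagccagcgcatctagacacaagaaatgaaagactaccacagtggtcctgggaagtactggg
Asb17, chr3:153843997-153844296, plus strand: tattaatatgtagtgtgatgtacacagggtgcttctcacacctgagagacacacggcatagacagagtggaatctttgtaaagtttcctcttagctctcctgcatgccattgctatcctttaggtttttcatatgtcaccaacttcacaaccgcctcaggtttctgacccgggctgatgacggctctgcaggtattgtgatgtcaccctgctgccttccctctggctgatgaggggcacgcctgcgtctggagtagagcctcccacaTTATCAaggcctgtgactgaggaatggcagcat
Slc29a1, chr17:45596078-45596377, minus strand: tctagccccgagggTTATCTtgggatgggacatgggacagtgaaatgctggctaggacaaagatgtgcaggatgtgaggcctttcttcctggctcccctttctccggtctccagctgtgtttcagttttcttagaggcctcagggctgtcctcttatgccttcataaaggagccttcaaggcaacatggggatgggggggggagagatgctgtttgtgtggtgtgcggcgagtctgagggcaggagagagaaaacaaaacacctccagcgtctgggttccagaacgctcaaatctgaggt

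In *Pla2g12a* the motif began at base 194 of the window and ended 51 bases before the start that the window is set on. In *Asb17* it began at base 268, within the 50 bases that follow the start, and read TTATCA, the reverse complement of TGATAA. In *Slc29a1* it read TTATCT and began at base 15. The windows of *Pla2g12a* and *Slc29a1* lie wholly inside the gene spans given above, at internal annotated starts. That of *Asb17* lies at the outer start of its gene. The share of windows with a motif was close to that of all windows.

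Over the populations, the 9 genes summed to 926.2 CPM in S0-low (908.8 to 943.9), to 1667 in S0-medium (1643 to 1692) and to 1474 in S1 (1444 to 1504). S2 held 817.6 CPM, S3 379.1 and S4/S5 169.6. Together they took 0.094% of the UMIs of the kept cells. Of the genes, 7 were highest in S0-medium and 2 in S1, *Hesx1* and *Arhgdig*. How many of all genes were highest in these populations was not counted. With these borders and all cells the order was shared: S0-medium and S1 stood above S0-low and S2 for each of the 9 genes, and S4/S5 was lowest for each.

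The secreted and lipid-active products come first. *Fam132a* encodes adipolin, a circulating relative of the complement protein C1q known for effects on glucose metabolism. From S0-low to S4/S5 it stood at 137, 268.3, 218, 96.3, 39.5 and 19.5 CPM over the 6 populations. *Pla2g12a*, a secreted phospholipase A2, had the most UMIs of the 9 genes, 14125 in the kept cells, and read 296.3, 473.7, 384.8, 183.3, 92.6 and 48.9 CPM in the same order. In both genes the step from S0-medium to S1 was downward beyond counting error, with S1 over S0-medium ratios of 0.812 (0.761 to 0.867) and 0.812 (0.774 to 0.853). This step depends on where the antibody borders lie. With Gaussian mixtures, log10 antibody counts or scaling within each cell, S1 was the higher one for both genes, by log2 ratios of 0.331, 0.587 and 0.444 for *Fam132a* and 0.0325, 0.232 and 0.0846 for *Pla2g12a*. *Prss50*, a serine protease family member known from testis, read 44.7, 76.9, 65.2, 29.1, 11.6 and 5.28 CPM. It thus followed *Fam132a* at a lower level.

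With these borders the transporter and the phosphatase fell more slowly up to S2. *Slc29a1* encodes ENT1, an equilibrative transporter that carries nucleosides across the plasma membrane. Over the populations it read 168.2, 306.8, 277.5, 198.7, 89.3 and 34.9 CPM. *Minpp1*, which removes phosphates from inositol polyphosphates, read 188.4, 311.9, 298.3, 191.2, 94.1 and 36.7 CPM. These genes kept 64.8% and 61.3% of their highest level in S2, the largest shares among the 9. On log10 antibody counts *Slc29a1* still fell least from S1 to S2, by a log2 ratio of -0.0838. *Minpp1* then fell by -0.271, more than *Hesx1* (-0.117), *Arhgdig* (-0.216), *Prss50* (-0.221) and *Asb17* (-0.241). For *Minpp1* the levels of S0-medium and S1 could not be told apart, with a ratio of 0.957 (0.904 to 1.01), and on the other 3 antibody scales its log2 ratio was between 0.265 and 0.384.

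The remaining genes act inside the cell. *Hesx1*, a homeodomain repressor known from forebrain and pituitary development, read 27.7, 63.5, 65.8, 32.2, 10.9 and 7.66 CPM, and its levels in S0-medium and S1 overlapped within counting error. *Arhgdig* read 25.3, 78.8, 95.9, 51.8, 23.8 and 8.19 CPM. With these borders it was the only gene of the 9 that was higher in S1 than in S0-medium beyond counting error, with a ratio of 1.22 (1.10 to 1.35). With Gaussian mixtures and on log10 counts all 9 genes read higher in S1, and 8 did with scaling within each cell. How many of all genes did so on these scales was not counted. *C2cd4a*, a C2-domain protein known from pancreatic islets, rested on 787 UMIs and read 12.5, 33.6, 24.2, 7.34, 5.46 and 1.32 CPM. *C2cd4a* kept 21.8% of its highest level in S2, the smallest share. *Asb17*, a SOCS-box protein of the type that hands substrates to ubiquitin ligases, read 26.0, 53.7, 44.0, 27.6, 11.8 and 7.13 CPM.

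**Figure D2:**
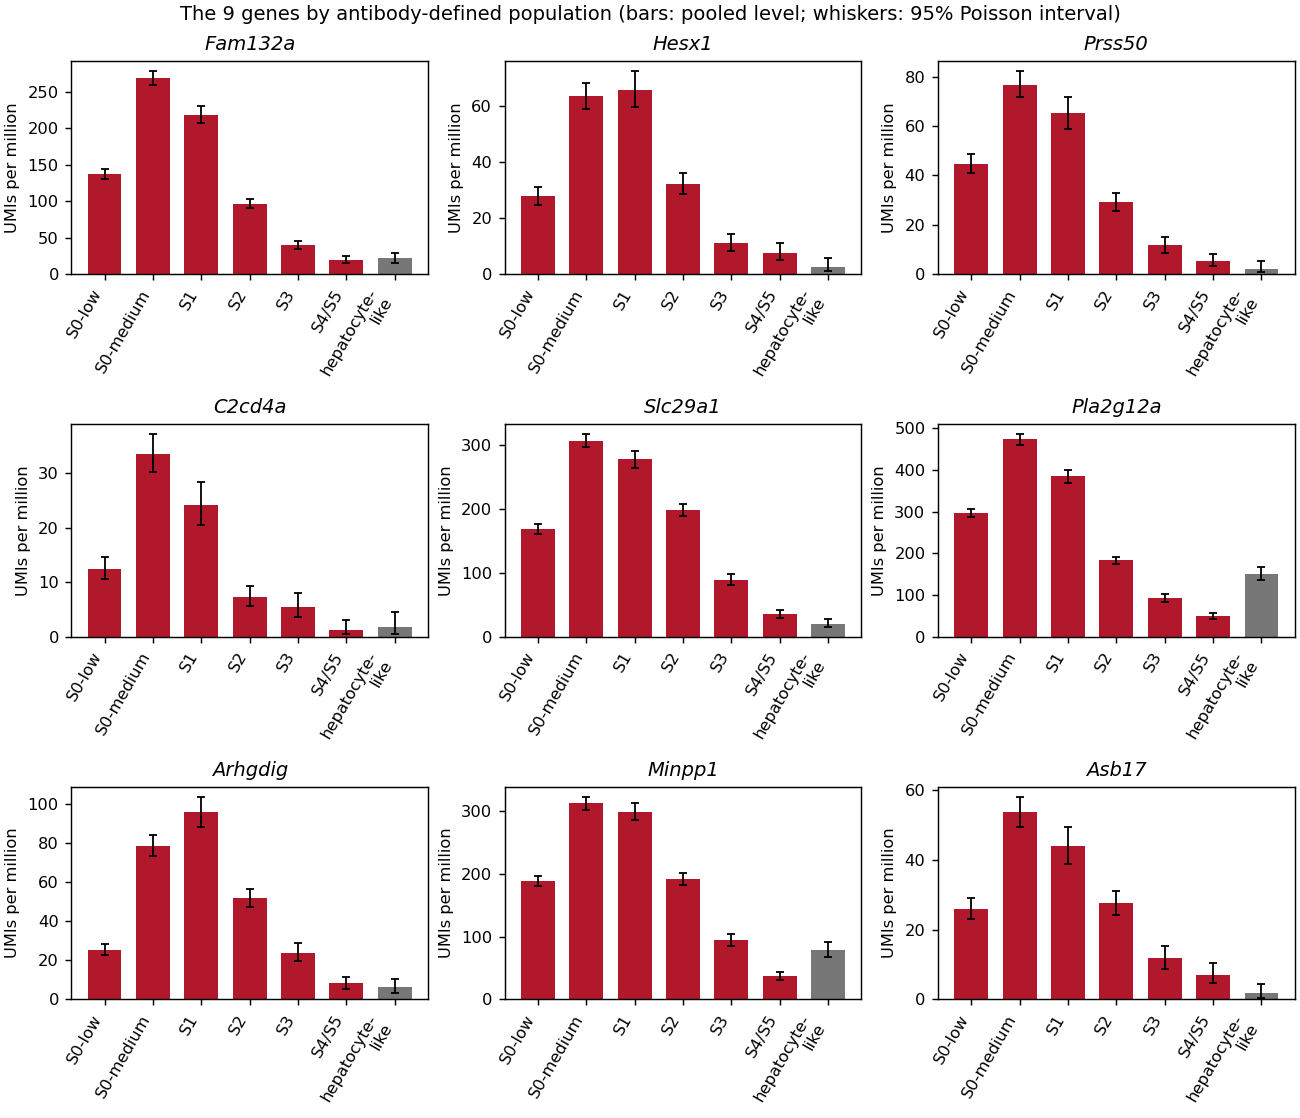
Pooled level of each gene in CPM (bars) with exact 95% Poisson intervals (whiskers) in the 6 populations, and in the hepatocyte-like cells in grey. All 9 genes are highest in S0-medium or S1, and Pla2g12a stands at 151.1 CPM in the hepatocyte-like cells.

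From S0-low to S0-medium all 9 genes were higher beyond counting error, by 1.60-fold (*Pla2g12a*) to 3.11-fold (*Arhgdig*). Of them, 4 were at least 2-fold higher, *Hesx1*, *C2cd4a*, *Arhgdig* and *Asb17*, against 1.55% of the 9834 genes that had at least 50 UMIs over both populations. How many of the 9834 were higher beyond counting error was not counted, and their median log2 ratio was -0.0465. All 9 passed the minimum of 50 UMIs in each comparison. From S0-low to S1 the range was 1.299 to 3.787-fold, and 2 genes passed 2-fold, *Hesx1* and *Arhgdig*, against 3.38% of 9577 genes. The summed ratio was 1.59 (1.55 to 1.64). These counts stand in the contrast that selected the genes and are given as description only. Other antibody scales put the border between S0-low and S0-medium lower: with Gaussian mixtures S0-low ended at 53 CD71 counts in place of 233, held 644 cells and had the genes at 415.7 CPM. The log2 ratio of S1 over S0-low was then 1.98 in place of 0.67. With cells of other types left out it was 0.421. With the *Cd34* cluster left out as well it was 0.217, as S0-low then held the genes at 1277 CPM (1252 to 1303). *Prss50* and *Pla2g12a* then read lower in S1 than in S0-low, by log2 ratios of -0.0235 and -0.0821, and *Arhgdig* alone stayed past 2-fold.

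From S1 to S2 all 9 genes were lower beyond counting error, by 1.40-fold (*Slc29a1*) to 3.29-fold (*C2cd4a*), and in sum by 1.80-fold (1.75 to 1.86). Of them, 5 were at least 2-fold lower, *Fam132a*, *Hesx1*, *Prss50*, *C2cd4a* and *Pla2g12a*, where 8.29% of 8217 genes were. How many of the 8217 were lower beyond counting error was not counted. Their median log2 ratio was -0.344, or -0.182 with globin left out. On log10 antibody counts none of the 9 was 2-fold lower, with log2 ratios from -0.874 for *C2cd4a* to -0.0838 for *Slc29a1*, and 2.24% of all genes were. With Gaussian mixtures and with scaling within each cell, 3 of the 9 were, against 9.75% and 9.91% of genes. Globin rose from 2.8% to 13.1% of UMIs between these populations, which lowers every other CPM. With globin left out of the total, 3 of the genes were at least 2-fold lower, *Fam132a*, *Prss50* and *C2cd4a*, against 4.81% of genes. By S4/S5 all 9 genes were at least 2-fold below S1, by 6.18-fold (*Asb17*) to 18.3-fold (*C2cd4a*), but so were 84.9% of 7328 genes. With globin left out the share of all genes was 29.2%, and all 9 genes were still at least 2-fold lower. Per cell, the 9 genes summed to 15 UMIs in S1, 5.85 in S2 and 0.729 in S4/S5.

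The populations cut a continuous scale, so the genes were also followed in 10 equal groups of cells ordered by each antibody. Along CD71 in Ter119-low cells, the 9 genes summed to 328.3 CPM (300.7 to 357.7) in the lowest group, with a median CD71 count of 14, and to 467.1, 875.9, 1276, 1489, 1605 and 1692 CPM in the next 6. They were highest, at 1736 CPM, in the group with a median of 614 and fell to 1403 CPM in the group with the most CD71, whose median was 1484. That last group stood 4.27-fold (3.90 to 4.69) above the lowest, and 3.94-fold with cells of other types left out. The lowest group held 36.9% of cells of other types and a median of 4133 UMIs per cell, against 0.629% and 10027.5 UMIs in the group with the most CD71. Another 49.1% of the lowest group lay in the *Cd34* cluster. With this cluster left out too, the 9 genes summed to 859.7 CPM (816.5 to 904.5) in the lowest group, to 1698 in the highest and to 1399 in the one with the most CD71, a ratio of last over lowest of 1.63 (1.53 to 1.73).

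The genes entered this scale at different points. *Prss50*, *Pla2g12a* and *Minpp1* reached 50% of their highest level by the group with a median CD71 count of 76. *Fam132a*, *Hesx1*, *C2cd4a*, *Slc29a1* and *Asb17* reached it at 138.5, and *Arhgdig* at 213. The 50% cut, here and below, carries no interval, so genes near it cannot be ordered. At the median of 76, *Minpp1* stood at 53.2%, *Prss50* at 54.9% and *Slc29a1* at 46.4% of their highest level. With other types left out, *Slc29a1* joined the first 3 genes at a median of 55, *Fam132a* and *Asb17* followed at 115, *Hesx1* and *C2cd4a* at 182 and *Arhgdig* at 257. With the *Cd34* cluster left out too, *Prss50*, *Slc29a1*, *Pla2g12a* and *Minpp1* were already at 50% in the lowest group, with a median of 42. Their entry was then not seen, and *Fam132a*, *Hesx1* and *Asb17* followed at 102, *C2cd4a* at 159 and *Arhgdig* at 224.5. The level at the start of the scale differed as well. *Minpp1* stood at 97.2 CPM and *Fam132a* and *Pla2g12a* both at 74.5 CPM in the lowest CD71 group. Myeloid-like cells held *Minpp1* at 81.7 and *Pla2g12a* at 66.01 CPM, and megakaryocyte-like cells *Fam132a* at 67.9 CPM, so these levels are near those of other types. With the hepatocyte-like level subtracted, the log2 ratio of the sum from the lowest to the last group was 4.75 in place of 2.1. That level, 286.7 CPM, is close to the 328.3 CPM of the lowest group, so this ratio rests on a small remainder. It includes *Pla2g12a* at 151.1 CPM, above its level in the lowest group, so it can remove more than free RNA. In the lowest group *Arhgdig* stood at 2.53 CPM (0.688 to 6.47), 35.7-fold (13.8 to 132) below its level in the group with the most CD71. For *Asb17* the lowest group held 1.26 CPM and the ratio was 30.1 (8.15 to 251). *C2cd4a* had 0 UMIs there, and set against the 1.89 CPM that 3 UMIs would give it was at least 10.7-fold higher in the group with the most CD71. *Hesx1* was 16.8-fold higher (7.57 to 46.2) and *Prss50* 7.89-fold (4.41 to 15.5), or 3.70-fold (2.43 to 5.88) with other types left out. With the *Cd34* cluster left out too, the ratio was 0.994 (0.772 to 1.28) for *Prss50*, 5.72 (3.83 to 8.87) for *Arhgdig*, 3.12 (1.61 to 6.64) for *C2cd4a*, 2.25 (1.63 to 3.14) for *Hesx1* and 1.61 (1.11 to 2.38) for *Asb17*. *Arhgdig* also peaked latest, at a median CD71 count of 906.5, where it read 104 CPM, and *Pla2g12a*, *Prss50* and *Asb17* earliest, at 306.5.

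Along cKit in the same cells the genes rose and fell. The sum was 596.6 CPM (561.5 to 633.3) in the group with the least cKit, 1597 (1552 to 1642) in the sixth group, with a median count of 234, and 1056 (1025 to 1088) in the group with the most, with a median of 758.5. The end of the scale stood 1.77-fold (1.66 to 1.89) above its start, and 1.26-fold (1.18 to 1.35) with cells of other types left out, of which the group with the least cKit held 26.1%. *C2cd4a* read 1.11 CPM in the group with the least cKit, 34.5 in the sixth and 14.1 in the last, 12.7-fold (3.36 to 107) above the first. With other types left out the first group read 5.69 CPM and this ratio was 2.71 (1.23 to 7.04), and with the *Cd34* cluster left out too it was 9.71 (2.58 to 81.9). *Arhgdig* was highest in the third group, with a median cKit count of 74, at 89.4 CPM, and fell to 35.5 CPM in the last. Its first group read 29.3 CPM, and the ratio of last over first, 1.21 (0.878 to 1.69), could not be told from 1. With other types left out, the last group held *Arhgdig* at 0.643 of the first (0.483 to 0.861), and with the *Cd34* cluster left out too at 0.802 (0.596 to 1.09). *Prss50* was the least reduced at the top, with 61.4 CPM in the last group against 74.2 CPM in its highest.

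Along Ter119 in all lineage-low cells the sum was 1135 CPM (1105 to 1165) in the first group, 1440 (1412 to 1468) in the fourth, with a median Ter119 count of 10, and 212.6 (196.9 to 229.2) in the last, with a median of 192. The first group held 17.1% of cells of other types and a median of 5211 UMIs per cell, against 6.64% and 10746.5 in the fourth. These cells were not left out along Ter119. Globin, at 13.1% of UMIs in S2 and 64.1% in S4/S5, stayed in the totals and lowers every other CPM at high Ter119. *C2cd4a* was below 50% of its highest level once the median Ter119 count passed 18. *Fam132a*, *Hesx1*, *Prss50*, *Pla2g12a* and *Asb17* held 50% up to a median of 37, and *Slc29a1*, *Arhgdig* and *Minpp1* up to 62. Of the genes, 6 peaked between medians of 4 and 10, among them *Pla2g12a* at 4 and *C2cd4a* at 7, and *Hesx1*, *Slc29a1* and *Arhgdig* at 18.

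**Figure D3:**
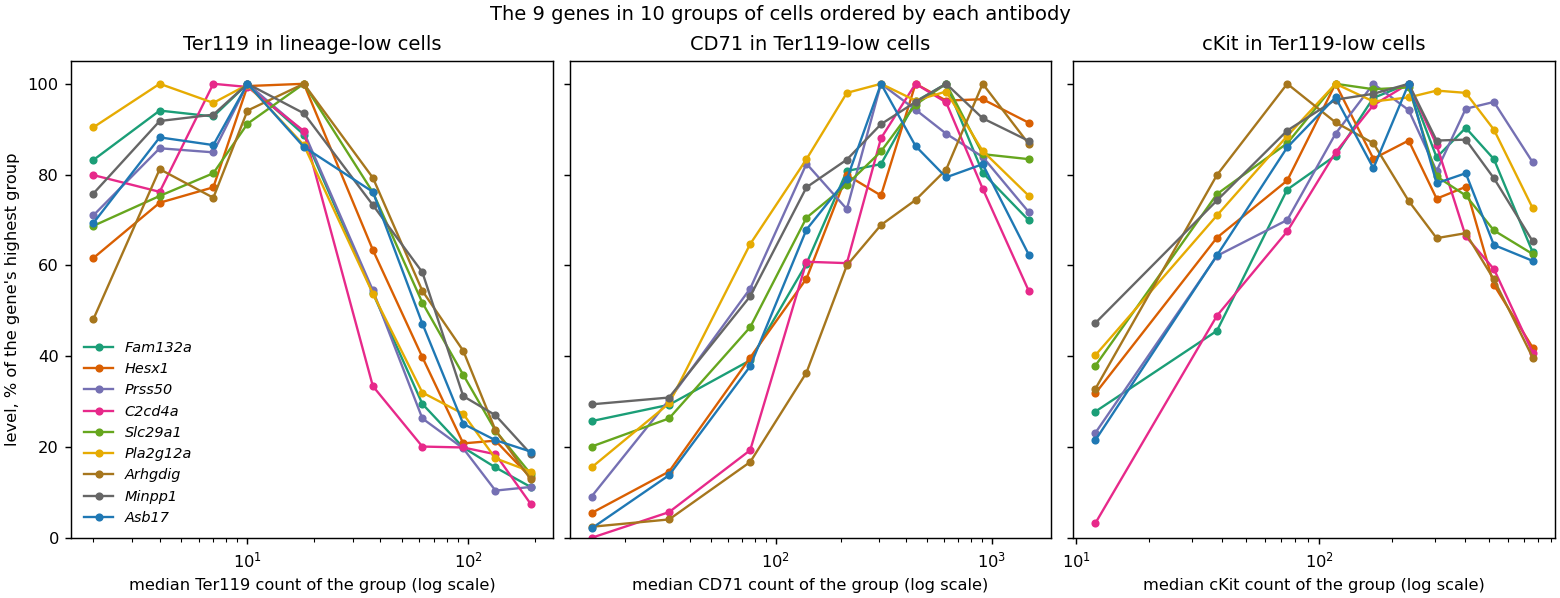
Level of each gene, as a percentage of its highest group, in 10 groups of cells ordered by Ter119, CD71 and cKit (x axes: median antibody count of the group, log scale). With all these cells kept in, the genes reach 50% of their highest level between CD71 medians of 76 and 213. They drop below it after Ter119 medians of 18 to 62. Without other types and the Cd34 cluster (not drawn), Prss50, Slc29a1, Pla2g12a and Minpp1 hold 50% from the lowest CD71 group, median 42.

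The antibodies were then crossed by splitting Ter119-low cells into 3 equal groups by cKit and 3 by CD71. At low CD71 the sum was 604.6, 844.9 and 633.6 CPM for low, middle and high cKit, and at middle CD71 it was 1346, 1723 and 1486 CPM. At high CD71 it was 1278 (1242 to 1315), 1729 (1691 to 1768) and 1733 (1683 to 1784) CPM, so the cells with high CD71 and low cKit held less than those that kept cKit. *C2cd4a* followed this, with 16.9 CPM (13.0 to 21.7) at high CD71 and low cKit against 39.1 (33.6 to 45.4) at middle cKit. *Pla2g12a* read 332.1, 442.9 and 512.6 CPM over low, middle and high cKit at high CD71. *Arhgdig* did not fall with cKit there, at 89.5, 94.6 and 90.7 CPM, whose intervals overlapped. At low CD71 *Arhgdig* was higher with low cKit, 20.3 CPM (14.1 to 28.4), than with high cKit, 8.23 CPM (5.67 to 11.6). Of the cells with low cKit and low CD71, 43.8% were of other types. At low CD71, 14.2%, 25.6% and 28.7% of cells with low, middle and high cKit lay in the *Cd34* cluster. With both left out, the sums at low CD71 rose to 1381 (1280 to 1488), 1261 (1195 to 1330) and 924.2 (883.7 to 966.1) CPM. At low cKit the sum then no longer followed CD71, with 1381, 1586 and 1289 CPM over low, middle and high CD71, while at high cKit it rose over 924.2, 1488 and 1733 CPM. *Arhgdig* kept the larger value at low CD71 with low cKit, 64.4 CPM (44.1 to 90.9) against 14.6 (9.94 to 20.8) with high cKit.

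**Figure D4:**
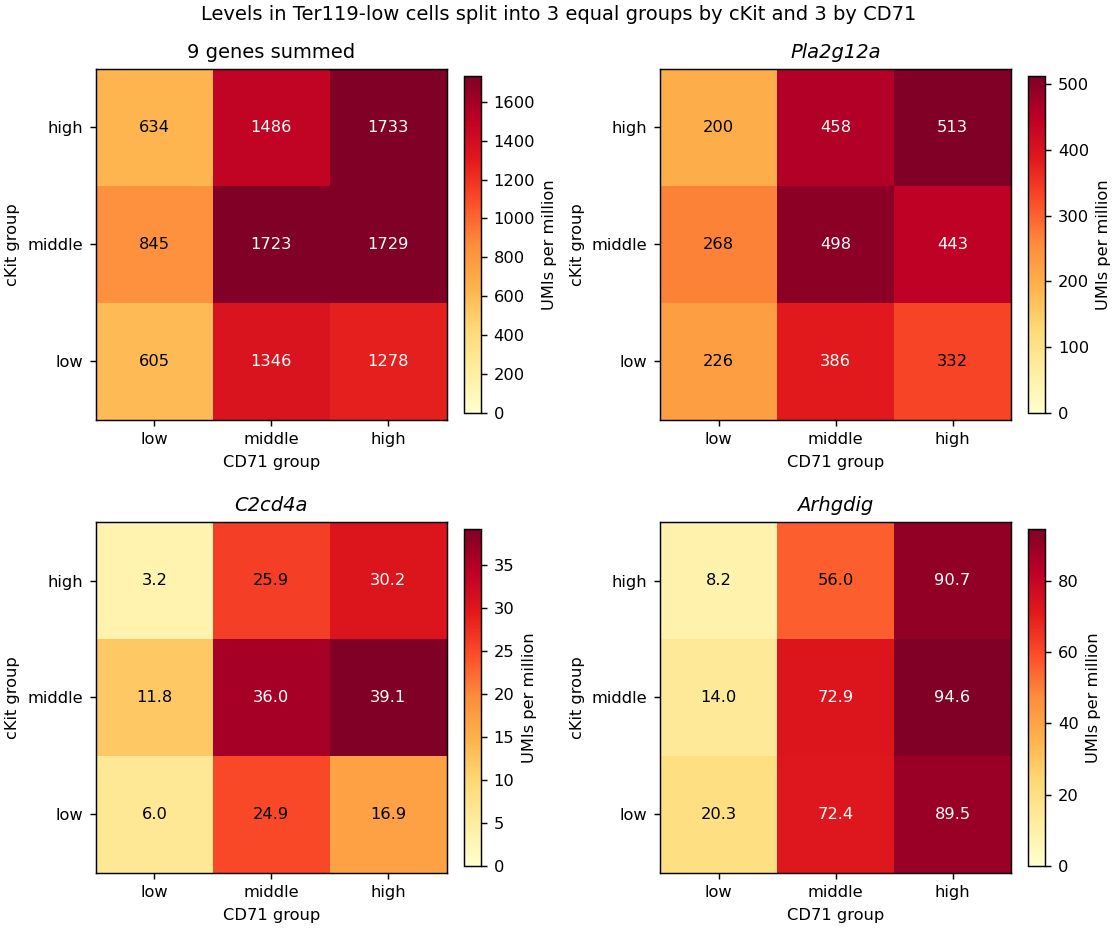
Levels in CPM in Ter119-low cells split by cKit (vertical) and CD71 (horizontal), for the 9 genes summed and for Pla2g12a, C2cd4a and Arhgdig, each on its own colour scale from 0. With all these cells kept in, the sum is between 604.6 and 844.9 CPM at low CD71 and 1278 or more elsewhere. Without other types and the Cd34 cluster (not drawn), the sums at low CD71 are 1381, 1261 and 924.2 CPM for low, middle and high cKit.

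Within S1, cells were split into 3 equal groups of 204 by their share of α-globin UMIs, which is the transcript that rises in this population. From the lowest over the middle to the highest group the 9 genes summed to 1711 (1662 to 1762), 1482 (1431 to 1534) and 1027 (975 to 1080) CPM, while α-globin stood at 2717, 5551 and 19363 CPM. *Fam132a* read 282.9, 204.4 and 119.5 CPM and *Pla2g12a* 473.6, 373.2 and 239.6 CPM, falling at each step. *C2cd4a* read 34.1, 17.53 and 15.98 CPM, with the drop at the first step. *Hesx1*, *Prss50*, *Slc29a1* and *Arhgdig* had overlapping intervals in the lowest and the middle group and read lower in the highest, *Slc29a1* with 282.1, 304.0 and 229.2 CPM and *Arhgdig* with 100.9, 108.4 and 68.1 CPM. The interval of *Prss50* in the highest group (36.7 to 59.9) still overlapped that of the lowest (58.3 to 78.6). Median Ter119 counts rose over the groups as well, at 11, 13 and 17, against 8 in S0-medium and 14 in S1 as a whole. The fall with α-globin can therefore not be told apart from one along Ter119, and depth and globin share were not matched.

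Detection in single cells followed depth, so each cell was thinned to 2000 UMIs before shares were compared, and no cell was shallower. In S0-medium, 58.8% of cells then held a *Pla2g12a* UMI (55.8 to 61.8), 47.9% *Minpp1*, 43.4% *Slc29a1* and 36.9% *Fam132a*. The shares were 15.7% for *Arhgdig*, 11.8% for *Hesx1*, 11.5% for *Prss50*, 8.44% for *Asb17* and 5.12% for *C2cd4a*. Without thinning, *Pla2g12a* was seen in 90.2% and *C2cd4a* in 21.9% of S0-medium cells. At least 5 of the 9 genes were seen together in 5.03% of thinned S0-medium cells (3.79 to 6.53), 3.27% of S1 cells, 1.32% of S0-low cells and 0.695% of S2 cells. None of the 9 was seen in 5.03% of S0-medium cells and in 77.1% of S4/S5 cells.

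Whether cells rich in some of the genes were also rich in another was read within a population. Thinned S0-medium cells were split at the median of the summed UMIs of the other 8 genes, and the UMIs per cell of each gene were compared. None of the 9 ratios differed from 1 beyond counting error, with *Fam132a* at 1.20 (0.995 to 1.44) and *Hesx1* at 0.826 (0.562 to 1.20). In S1 too, each of the 9 intervals held 1. In S0-low each of the 9 genes was higher in the upper group, from 1.87-fold for *Minpp1* (1.57 to 2.23) to 7.60-fold for *Arhgdig* (3.88 to 16.6). In S2, 7 of the 9 intervals lay above 1, among them *Fam132a* at 1.85 (1.39 to 2.45) and *Asb17* at 2.11 (1.24 to 3.62), and those of *C2cd4a* and *Arhgdig* held 1. Of the S2 cells, 0.154% were of other types, and globin, which was kept among the thinned UMIs, took 13.1% of UMIs. The cause of these ratios was not tested. In S0-low with other types left out, 8 intervals lay above 1, with *Hesx1* at 0.983 (0.597 to 1.59). With the *Cd34* cluster left out too, 4 did, *Fam132a*, *Slc29a1*, *Pla2g12a* and *Arhgdig*, the last at 2.03 (1.24 to 3.39).

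Over 15 groups of lineage-low cells, set by cKit and CD71 at low Ter119 and by CD71 at intermediate and high Ter119, *Fam132a* and *Pla2g12a* were closest to each other (Pearson r of log levels 0.985). *Prss50* was closest to *Fam132a* (0.981), *Slc29a1* and *Minpp1* to each other (0.974) and *Asb17* to *Slc29a1* (0.946). *Hesx1* was closest to *Minpp1* (0.934), *Arhgdig* to *Hesx1* (0.923) and *C2cd4a* to *Asb17* (0.914), the lowest of these values. The lowest r of any pair was that of *Arhgdig* and *Pla2g12a* (0.736). The 10 other genes with at least 200 UMIs that were closest to the mean profile of the 9, among 9235 genes compared, had r from 0.937 to 0.965: *3300005D01Rik*, *Flt3l*, *Pacs1*, *Snrpn*, *Ifi30*, *Lpin1*, *Lefty1*, *Cpd*, *Sphk1* and *Tada2b*. The 9 genes had r from 0.865 (*Arhgdig*) to 0.974 (*C2cd4a*) with this mean profile. *Prss50*, *Pla2g12a*, *Minpp1*, *Slc29a1* and *Arhgdig* ranked below all 10 of the others. Each of the 9 is itself part of this mean. The mean is of linear shares while single genes are on a log scale, so these ranks also depend on a gene's level. *Ifi30*, a lysosomal thiol reductase, read 41.5, 69.4, 61.01 and 35.1 CPM from S0-low to S2 and 12.9 in S4/S5. *Sphk1*, which also led the deep cluster, read 25.7, 62.0, 37.3, 25.6 and 7.92 CPM in the same populations. All groups share 1 library and differ in depth and globin share, so these correlations are descriptions.

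The listed CFU-E genes took another course than the 9 genes. Of 15 markers, 7 were highest in S3, 5 in S2 and 1 each in S0-low, S0-medium and S1. In sorted fetal liver CFU-E lie in S0-medium and, for their last division, in S1 and S2. A list that mostly peaks in S2 and S3 therefore cannot tell whether the 9 genes mark CFU-E. The median marker stood at 49%, 68.7%, 92% and 95.1% of its highest level from S0-medium to S3, where the median of the 9 genes was 100%, 84.7%, 48.9% and 19.5%. *Car2*, a carbonic anhydrase, read 983, 2201, 3569, 6526 and 7663 CPM from S0-low to S3. *Blvrb*, a reductase of the heme breakdown pathway, read 377.5, 797.1, 1056, 1834 and 1876 CPM, and *Hemgn*, a nuclear protein of blood progenitors, 70.8, 221.4, 491.8, 1174 and 1467 CPM. From S0-low to S1, 11 of the 15 were at least 2-fold higher and 1 lower, with a median log2 ratio of 1.48, against 0.72 for the 9 genes and -0.19 for all genes, of which 324 were higher and 1748 lower. From S1 to S2 the medians were 0.49, -1.03 and -0.34, and 1 marker was at least 2-fold higher and none lower.

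**Figure D5:**
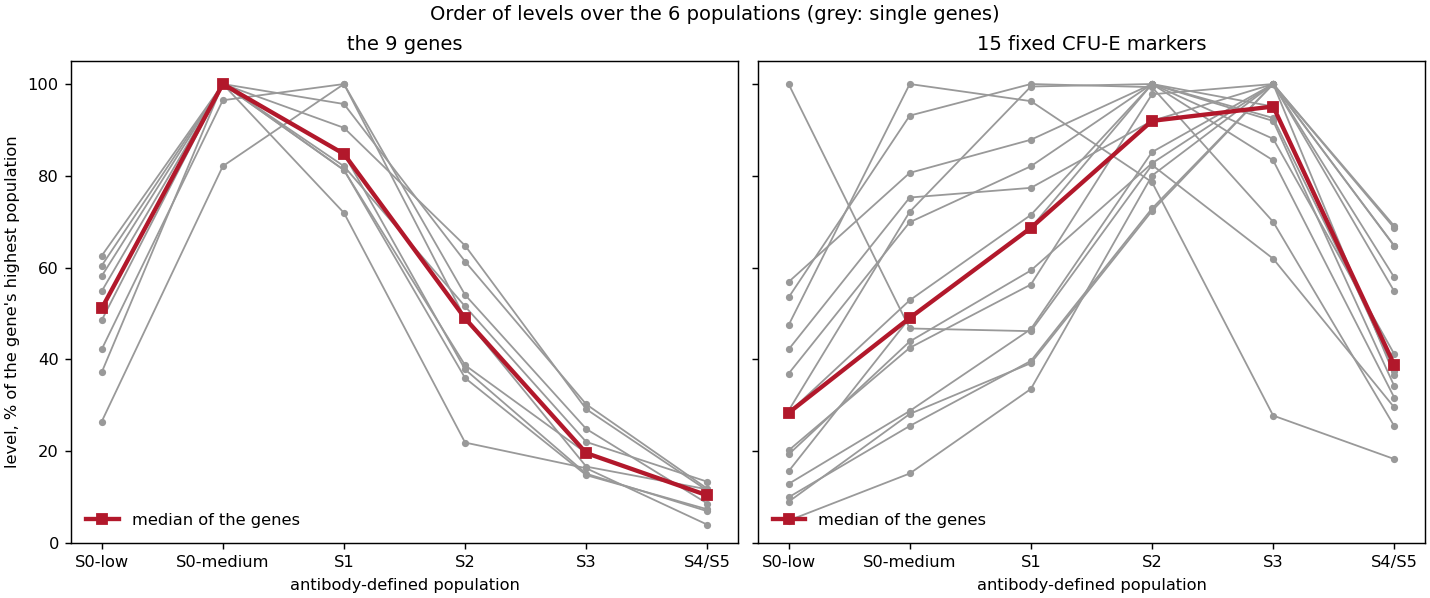
Level of each gene as a percentage of its highest population (grey) and the median over the genes (red squares) for the 9 genes and for the 15 listed CFU-E markers. The median of the 9 genes is highest in S0-medium and stands at 48.9% in S2, where the median marker stands at 92%.

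Genes of the earliest and latest stages bracketed the 9. All 12 early progenitor genes were at least 2-fold lower in S1 than in S0-low, against 18.3% of all genes, among them *Plac8* (363.5 CPM in S0-low and 16.6 in S0-medium), the transcription factor *Myb* (140.9 and 65.9) and *Emb* (93.4 and 3.22). Of the S0-low cells, 17.1% lay in the *Cd34* cluster, whose leading genes include *Emb*, against 0.49% in S1. Cells of other types made up 20.5% and 0.49%. Neither was left out for this list, so their part in the fall was not tested. Of 15 terminal erythroblast genes counted, 13 were at least 2-fold higher in S2 than in S1, against 2.02% of all genes, led by *Hbb-bs* (12619 and 62402 CPM), *Hbb-bt* (7214 and 33080) and *Hba-a1* (4738 and 20543).

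Other genes of nucleoside handling and of inositol phosphates were counted from lists, beside *Slc29a1* and *Minpp1*. Of 16 counted genes of nucleoside uptake and salvage, 1 was at least 2-fold higher and 3 lower in S1 than in S0-low, with a median log2 ratio of -0.29, where 3.38% of all genes were higher and 18.3% lower. *Hprt* and *Adk*, which salvage purine bases and adenosine, read 363.5 and 138.4 CPM in S0-low and 489.9 and 207.7 in S1, while *Aprt*, which salvages adenine, read 380.9 and 238.8 CPM. Of 14 counted genes of inositol phosphate metabolism none was 2-fold higher and 4 were lower in the same comparison. Cells of other types and the *Cd34* cluster were not left out of S0-low for these lists. *Nudt4*, a diphosphoinositol phosphatase, read 98.5 CPM in S0-low, 188.0 in S1, 334.8 in S2 and 596.4 in S4/S5. *Isyna1*, which makes inositol phosphate from glucose phosphate, read 121.8, 79.9, 44.6 and 18.8 CPM, and *Impa1*, an inositol monophosphatase, read 58.2, 56.4, 50.9 and 15.3 CPM.

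Relatives of the 9 genes were mostly rare or differently placed. Of 50 same-family genes, 15 had enough UMIs for S1 against S0-low, of which 1 was at least 2-fold higher and 7 lower. Of all genes, 3.38% were higher and 18.3% lower. *Slc29a2* and *Slc29a3* read 4.824 and 4.997 CPM in S0-low and 1.28 and 2.08 CPM in S1. *Arhgdia* and *Arhgdib* read 258.0 and 253.3 CPM in S0-low, and 193.3 and 23.5 CPM in S1, the opposite direction to *Arhgdig*. In S0-medium *Arhgdib* already stood at 43.8 CPM. Cells of other types, 20.5% of S0-low, and the *Cd34* cluster, 17.1%, were not left out for any of these relatives. Their part in a fall from S0-low was not tested. *Pla2g12b* was found in hepatocyte-like cells at 223.4 CPM and at 1.44 CPM in S1. Its relatives *Pla2g4a*, *Pla2g6* and *Pla2g15* read 7.37, 7.05 and 1.44 CPM in S1. *Fam132b*, which encodes erythroferrone, the erythroblast hormone that lowers hepcidin, read 0.775, 3.03, 4.64 and 5.18 CPM from S0-low to S2 on 156 UMIs. *C1qtnf4* read 2.41 CPM in S0-low and 22.3 in S2, and *C1qtnf6* stood at 11.97 CPM in hepatocyte-like cells. Among the Asb genes, *Asb6* and *Asb8* read 30.4 and 24.3 CPM in S1, *Asb1* and *Asb3* 13.9 and 8.97 CPM, and *Asb2*, *Asb4*, *Asb7*, *Asb13* and *Asb16* between 0 and 6.09 CPM.

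Cells of other types give a level against which low values can be read. The 9 genes summed to 286.7 CPM in 189 hepatocyte-like cells, to 278.8 in 244 megakaryocyte-like, 274.8 in 270 myeloid-like and 250 in 83 macrophage-like cells, against 169.6 CPM in S4/S5, where globin took 64.1% of UMIs. The genes did not keep 1 ratio there. *Pla2g12a* stood at 151.1 CPM in hepatocyte-like cells and 66.01 in myeloid-like cells, and *Minpp1* at 79.3 and 81.7 CPM. *Fam132a* stood at 21.3 CPM in hepatocyte-like and 67.9 in megakaryocyte-like cells. *Slc29a1* stood at 20.4 CPM in hepatocyte-like cells. In macrophage-like cells it stood at 115.5 CPM (89.5 to 146.7) on 67 UMIs, against 89.3 in S3. *Hesx1*, *Prss50*, *C2cd4a*, *Arhgdig* and *Asb17* were each between 1.08 and 7.39 CPM in all of these cells except the macrophage-like ones, where counts were few. After thinning, 25.4% of hepatocyte-like cells held a *Pla2g12a* UMI (19.4 to 32.2) and 0.529% an *Arhgdig* UMI (0.0134 to 2.91), at unthinned median depths of 13001 UMIs there and 10282 in S0-medium. The levels of *C2cd4a* in S4/S5 (0.429 to 3.08 CPM) and in hepatocyte-like cells (0.483 to 4.54 CPM) overlapped, so its presence in S4/S5 cannot be told from free RNA. The same held for *Fam132a*, *Hesx1*, *Prss50* and *Arhgdig*, whose intervals overlapped too. *Pla2g12a* and *Minpp1* stood below the hepatocyte-like level in S4/S5, at 48.9 and 36.7 CPM, so this comparison cannot show their presence either. *Slc29a1* and *Asb17* stood above it, at 34.9 and 7.13 CPM against 20.4 and 1.77.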

How the data were processed

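The authors counted UMIs per gene and cell in a 10x 3′ cDNA library aligned to mm10 with Cell Ranger, and antibody tags per cell, and deposited both as raw counts without normalization. Reads that matched no antibody made up 1.053% of the antibody counts. A cell was kept if it had 300 to 5000 genes and mitochondrial UMIs of no more than 9%, and doublets called by Scrublet (expected 6%, called 1.63%) were removed. Lineage-low cells had summed counts of CD41, CD45R, CD3e, CD11b and Ly6G/6C of at most 95.84, the median plus 2 scaled median absolute deviations on a log scale. Antibody counts were put on a centered log ratio scale over all cells, and Ter119 and CD71 were split by k-means into 3 classes, CD71 at high Ter119 into 2. Clusters used 2000 variable genes, 16 principal components, 30 neighbours and Leiden resolution 0.8, with 3 markers among 10 leading genes needed for a name.

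Levels are summed UMIs over total UMIs, per 1000000. Poisson, binomial and Clopper-Pearson intervals are exact at 95%. Genes with at least 50 UMIs over both populations entered counts of 2-fold differences. On simulated counts for S1 over S0-low, all 200 of 9577 genes changed 3-fold were recovered in direction. The true value lay inside the interval for 180 of these, a lower share than the 95.2% of the unchanged genes. Of the 9 genes only *Arhgdig* changed by more than 3-fold in this comparison, so the recovered directions say little about smaller ratios. The members and gene lists were chosen with earlier results of these data known. Genes named are the 9, the 3 with the most UMIs in each list, relatives with at least 50 UMIs, the 10 closest by profile, and the closest member, *Epor*, *Klf1*, *Tfrc*, *Prtn3*, *Mpo*, *Vcam1* and the *Cd34* cluster being added after their values were seen. Profiles of single genes are log2 of CPM plus 10. The mean profile of the 9 is the mean of their CPM as shares of each gene's highest group. Alternatives changed the level, denominator, antibody scale and filters, or subtracted the hepatocyte-like level as a stand-in for free RNA. The tools were scanpy 1.11.5, scikit-learn 1.9.0, igraph 0.11.9, scipy 1.17.1, numpy 2.4.6, matplotlib 3.10.9 and pandas 2.3.3 under Python 3.11.15, with seed 7.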

Additional observations from a re-analysis of the deposited data

How the results depend on the processing

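All values are log2 ratios of the 9 genes summed unless stated, and the cause of a shift was not tested. S1 over S0-low (0.67) was 0.57 as a mean over cells, 1.08 per cell, 1.98 with Gaussian mixtures, 2 on log10 antibody counts, 1.94 with antibodies scaled within each cell, 0.995 without a lineage limit, 0.73 in all deposited cells, 0.892 after the hepatocyte-like level was subtracted, and, in alternatives chosen after seeing the data, 0.54 with a linear lineage limit 0.421 without other cell types and 0.217 without these and the *Cd34* cluster. S2 over S1 (-0.85) was, in the same order, -1.04 as a mean, -0.688 without globin, -1.36 per cell, -0.34 on log10 counts, -0.802 scaled within cells and -1.16 after subtraction. S4/S5 over S1 (-3.12) was -3.35, -1.68, -4.37, -3.27 with mixtures, -3.3 on log10 counts, -3.25 within cells, -2.85 without a lineage limit and -2.96 both with doublets kept and in all deposited cells. Subtraction left no value there, since S4/S5 lay below the hepatocyte-like level. The last over the first of 10 CD71 groups (2.1) was 3.12 per cell, 2.24 with mixtures, 2.45 on log10 counts and 2.34 within cells. It was 4.75 after subtraction, 0.703 without other types and the *Cd34* cluster and 1.84 with 5 groups. For cKit (0.824) it was 0.496 as a mean, 2.03 per cell, 0.972 with mixtures, 0.348 within cells, 1.31 after subtraction, 0.334 without other types, 0.5 without these and the *Cd34* cluster and 0.422 with 5 groups.

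All 9 genes had their highest level in S0-medium or S1 under each of the 13 alternatives run for them. They were chosen for high levels in cells of this kind, so this agreement is no support, and the share of all genes was not counted. Which of those populations was higher depended on the border. S1 over S0-medium reversed with Gaussian mixtures for *Fam132a* (0.331), *Prss50* (0.0361), *C2cd4a* (0.428), *Slc29a1* (0.322), *Pla2g12a* (0.0325) and *Asb17* (0.0243). On log10 counts it reversed for the same genes (0.587, 0.205, 1.06, 0.411, 0.232 and 0.375), and with scaling within cells for *Fam132a* (0.444), *C2cd4a* (0.483), *Slc29a1* (0.368), *Pla2g12a* (0.0846) and *Asb17* (0.0354). S1 over S0-low reversed for *Prss50* (-0.0235) and *Pla2g12a* (-0.0821) without other types and the *Cd34* cluster. Of 351 single-gene values under alternatives, 214 lay within the counting interval of the main value, 115 moved beyond it in the same direction, 3 of *Minpp1* (S1 over S0-medium) changed sign from a value whose interval held 0, and these 19 reversed. The median share of S0-medium cells with a UMI of a gene (15.7%) was 49.9% without thinning and 7.4% at 1000 UMIs. Genes at least 2-fold lower in S4/S5 than in S1 numbered 6222, and 2141 without globin. No paired analysis was possible because there is 1 library of each kind and no test.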
